A study of Mus musculus with 3 samples.

Results

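The 86 genes described here encode the heat shock proteins, their co-chaperones and the heat shock factors of the mouse. They are every row of the deposited tables whose symbol begins with Hsp, with Dnaja, Dnajb or Dnajc and a digit, with Bag and a digit, or with Hsf and a digit. Hspg2, which encodes a matrix proteoglycan, was left out. They stand among 23234 genes in all, and 45 of them are J-domain genes. Their levels were measured in 3 RNA-seq libraries of cells sorted from wild-type C57BL/6J mice aged 6 to 15 weeks, each group being 1 library. Double-positive cells (DP), CD45+Ly6G+SiglecF+, came from the nose 2 days after intranasal instillation of lipopolysaccharide (LPS), a bacterial cell wall component. Nasal neutrophils, CD45+Ly6G+SiglecF-, came from the nose 1 day after LPS. Blood neutrophils, with that same gate, came from peripheral blood 1 day after LPS. All mice thus received LPS (10 µg in 10 µL), and no untreated group was analysed here. Whether cells of several mice were pooled is not given in the sources used here.

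Heat shock proteins are molecular chaperones, which keep other proteins from clumping and help them to fold, to cross membranes or to be destroyed. Hsp70 proteins bind short stretches of unfolded protein and release them in a cycle driven by ATP. J-domain proteins, the Dnaj families, bring clients to Hsp70 and start that cycle, while Bag proteins, Hspbp1 and the Hsp110 proteins act at the release step. Hsp90 proteins act later, on kinases, receptors and other nearly folded clients. Heat, oxidants or misfolded protein free the transcription factor Hsf1, which binds repeats of the bases GAA, read in alternating directions, near the start of stress-inducible chaperone genes. Neutrophils are short-lived cells whose blood form carries little RNA and few mitochondria.

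The promoter bases shown here hold matches to the heat shock element, the repeat that Hsf1 binds. The genes were picked by hand from the 18 members with a match, and a link between matches and levels was not tested. The bases come from RefSeq on GRCm38.p6, are written 5′ to 3′ along the gene, and hold in capitals each match to GAANNTTC or TTCNNGAA, searched on both strands in the window from 250 bases before to 50 bases after each start site. Overlapping matches run together. The stretches of Hspa1a, Hspa1b and Hspb1 run from 140 to 61 bases before the start site and that of Hspd1 from 150 to 121 bases before it. Those of Bag3 and Hsph1 lie within the first 50 transcribed bases. Such a match is a description of the letters and not evidence of binding.
Hspa1a (chr17:34972217-34972296, minus strand): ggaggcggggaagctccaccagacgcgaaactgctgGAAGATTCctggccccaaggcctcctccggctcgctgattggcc
Hspa1b (chr17:34959299-34959378, minus strand): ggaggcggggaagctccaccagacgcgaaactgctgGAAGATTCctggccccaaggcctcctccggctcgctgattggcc
Hspb1 (chr5:135887779-135887858, plus strand): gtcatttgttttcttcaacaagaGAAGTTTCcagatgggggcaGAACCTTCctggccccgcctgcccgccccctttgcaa
Bag3 (chr7:128523603-128523632, plus strand): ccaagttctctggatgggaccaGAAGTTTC
Hspd1 (chr1:55088053-55088082, minus strand): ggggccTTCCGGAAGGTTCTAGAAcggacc
Hsph1 (chr5:149636280-149636309, minus strand): tgctgcagaTTCTGGAAAGTTCtcctcagt
Dnajb6 (chr5:29735843-29735872, plus strand): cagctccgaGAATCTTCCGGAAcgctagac
The windows of Hspa1a and Hspa1b above are the same in all 80 bases, and the 250 bases before the 2 start sites differ at 3 positions (98.8% identity). Each holds 1 match, and Hspb1 holds 2 in its own. The element of Hspd1 lies between the start sites of Hspd1 and Hspe1, which point away from each other, and was also counted for Hspe1. Hspd1, Hspe1, Hsph1 and Dnajb6 hold a longer run of at least 3 alternating repeats, the longer element. Of the 86 members, 69 matched a promoter entry by symbol. The shorter element occurred in 18 of these 69 (26.1%), against 17% of the 27025 genes of the promoter table. The longer one occurred in 4 of 69 (5.8%), against 0.662% of that table.

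Values are FPKM, fragments scaled to transcript length and library size, so that levels can be compared between genes, and a ratio is given as log2 of (FPKM + 1) in one library over the other. With 1 library per group there is no replicate error and no test, and tissue, day and gate cannot be told apart from the group where they differ together. In bulk RNA, fewer cells of a type and less RNA per cell cannot be told apart either. Members at a mean of 1 FPKM or more over the libraries numbered 68, and 10719 of all genes passed that filter. The median ratio of all these genes was not 0: it was 0.57 for DP over nasal neutrophils, 0.41 for nasal over blood neutrophils and 0.95 for DP over blood neutrophils. Steps between the lowest values put the depth near 54.8 fragments per FPKM and kb of transcript for the DP library, 12.8 for the nasal neutrophil library and 54.3 for the blood neutrophil library, so low levels were least precise in nasal neutrophils. Both libraries from the nose also held transcripts of nasal tissue. The 10 olfactory markers summed to 2101 FPKM for DP, 1078 FPKM for nasal neutrophils and 4.12 FPKM for blood neutrophils, where 5 of them (Omp, Gng13, Cnga2, Gap43 and Cyp2g1) were listed at 0. The 14 neutrophil markers summed to 16180 FPKM for DP, 62590 FPKM for nasal neutrophils and 81300 FPKM for blood neutrophils. In blood neutrophils S100a8 was listed at 0 beside S100a9 at 52238 FPKM, and an exact 0 can be a failed estimate. Single markers did not all follow the sums. Il1r2 was highest in DP (2740 FPKM, nasal 1996 and blood 566), while Ltf, Ngp, Lcn2, Camp and Cd177 were highest in nasal neutrophils. The 10 macrophage and monocyte markers with a row summed to 474 FPKM for DP, 821.5 FPKM for nasal neutrophils and 569.1 FPKM for blood neutrophils, where C1qa, C1qb, C1qc and Mrc1 were listed at 0. The 9 red cell and platelet markers summed to 26.6 FPKM for DP, 30.6 FPKM for nasal neutrophils and 5534 FPKM for blood neutrophils. Siglec5, the symbol used here for the gene of SiglecF, stood at 168 FPKM for DP, 9.92 FPKM for nasal neutrophils and 18.7 FPKM for blood neutrophils. Of the 9 eosinophil markers, which include Siglec5, 4 passed the filter used here. The others of these differed in order: Alox15 (DP 7.98 FPKM, nasal 2.73 and blood 0), Ear2 (DP 0.427 FPKM, nasal 11.5 and blood 1.34) and Ccr3 (DP 1.92 FPKM, nasal 0.486 and blood 4.15). The eosinophil granule gene Epx was listed at 0 in all 3 libraries. The part of such cells in the member values was not tested.

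Summed over the 86 members, the share of all FPKM was 0.573% in the DP library, 0.421% in the nasal neutrophil library and 0.181% in the blood neutrophil library. Of the 68 members past the filter, DP held the highest value in 48, nasal neutrophils in 16 and blood neutrophils in 4. The share highest in DP was 70.6%, against 58.7% of all genes past the filter, and the share highest in blood was 5.88%, against 19%. The 4 highest in blood neutrophils were Hspbap1, Dnaja2, Dnajc10 and Dnajc28. In 11 of the 68 members, no ratio between any pair of libraries reached 2-fold. The same share over all genes was not computed, so whether this count is high or low is not known.

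Of the inducible Hsp70 genes, Hspa1a and Hspa1b had the 2 largest ratios of any member between a pair of libraries. Hspa1a, the stress-inducible cytosolic Hsp70, stood at 21.6 FPKM for DP, 209 FPKM for nasal neutrophils and 0.367 FPKM for blood neutrophils. Its near copy Hspa1b stood at 9.97 FPKM for DP, 99.4 FPKM for nasal neutrophils and 0.163 FPKM for blood neutrophils. Hspa1l, a related gene known for expression in testis, stood at 1.77 FPKM for DP, 12.3 FPKM for nasal neutrophils and 0.131 FPKM for blood neutrophils. All 3 genes were thus intermediate in DP, highest in nasal neutrophils and lowest in blood. The log2 ratios of DP over nasal neutrophils were -3.21, -3.19 and -2.27, which made them 3 of the 4 members at least 4-fold lower in DP. For nasal over blood neutrophils they were 7.26, 6.43 and 3.56, and for DP over blood neutrophils 4.05, 3.24 and 1.29. The coding sequences of Hspa1a and Hspa1b differ at 10 positions (99.5% identity), so reads could be divided between them. The level of Hspa1a was 2.17 times that of Hspa1b in the DP library, 2.1 times in the nasal neutrophil library and 2.25 times in the blood neutrophil library. Up to 377 bases of Hspa1a exon also overlap a predicted protein-coding gene on the other strand. The coding sequence of Hspa1l is less alike, at 83.3% identity to Hspa1a, but the gene overlaps an antisense RNA over up to 1778 bases of exon. The promoter entry of Hspa1l held no match to either element.

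Hspa8 and Hspa5 were the most abundant members, and the housekeeping Hsp70 genes Hspa8, Hspa5 and Hspa9 differed by less than 2-fold between the nasal libraries. Hspa8, the constitutive cytosolic Hsp70, stood at 932 FPKM for DP, 713 FPKM for nasal neutrophils and 373 FPKM for blood neutrophils. By level it ranked 89 among the genes of DP, 127 among those of nasal neutrophils and 250 among those of blood neutrophils. Hspa5, or BiP, the Hsp70 of the endoplasmic reticulum, stood at 569.6 FPKM for DP, 539 FPKM for nasal neutrophils and 168 FPKM for blood neutrophils. Hspa9, or mortalin, the Hsp70 of mitochondria that pulls proteins in across the membrane, stood at 25.1 FPKM for DP, 19.6 FPKM for nasal neutrophils and 1.03 FPKM for blood neutrophils. In all 3 genes the DP value was the highest, with log2 ratios over nasal neutrophils of 0.39, 0.08 and 0.34, below the median of all genes. Against blood the spread was wider: nasal over blood neutrophils gave 0.93 for Hspa8, 1.68 for Hspa5 and 3.34 for Hspa9. Hspa14, an atypical Hsp70 that works at the ribosome with Dnajc2, stood at 75.2 FPKM for DP, 15.5 FPKM for nasal neutrophils and 20.6 FPKM for blood neutrophils. It was the 1 Hsp70 gene at least 4-fold higher in DP than in nasal neutrophils (log2 ratio 2.21), and its partner Dnajc2 stood at 19.5 FPKM for DP, 3.1 FPKM for nasal neutrophils and 3.08 FPKM for blood neutrophils (log2 ratio 2.32). An exon of Hspa14 shares 157 bases with another protein-coding gene on the same strand in the annotation. Hspa13, a microsomal Hsp70 relative, stood at 6.53 FPKM for DP, 9.31 FPKM for nasal neutrophils and 3.7 FPKM for blood neutrophils, and Hspa2, known for its role in sperm development, at 5.66 FPKM for DP, 4.65 FPKM for nasal neutrophils and 2.56 FPKM for blood neutrophils.

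**Figure D1:**
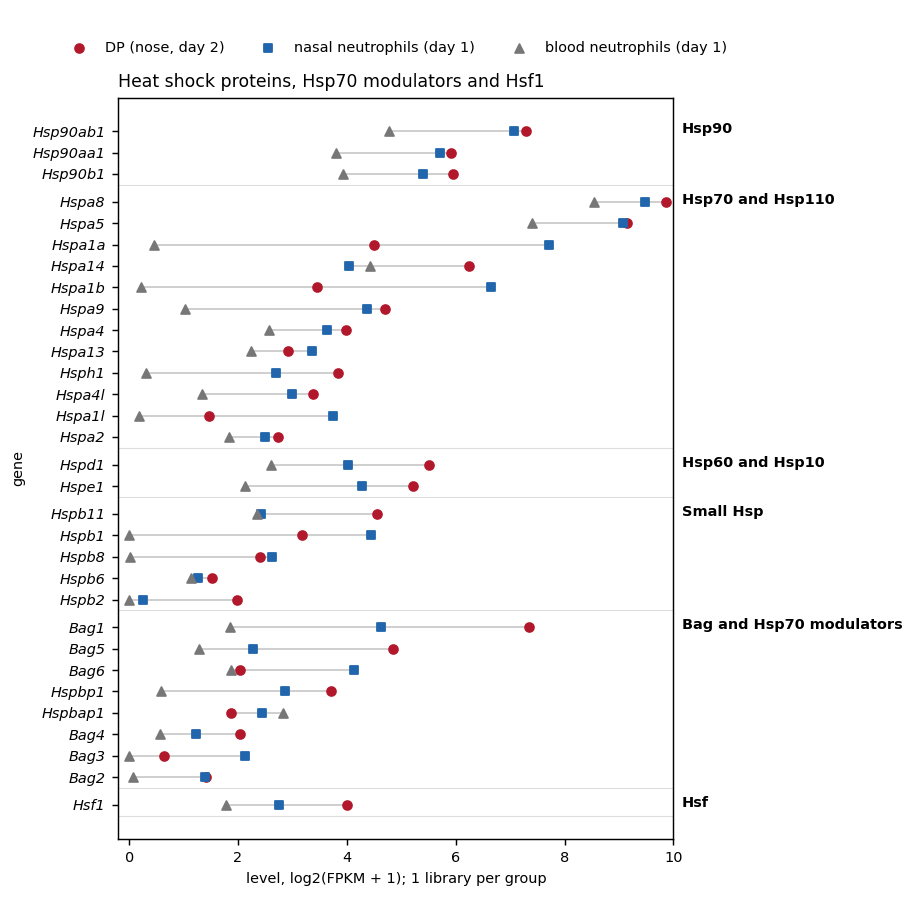
Levels as log2(FPKM + 1) of the 31 members outside the J-domain families that passed the filter, by class and, within a class, by falling mean level. Each point is 1 library: DP (red circles), nasal neutrophils (blue squares) or blood neutrophils (grey triangles). Hspa1a, Hspa1b and Hspa1l are highest in nasal neutrophils, while Bag1, Bag5, Hspd1, Hspe1 and Hsf1 are highest in DP.

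The Hsp110 proteins recharge Hsp70 with ATP and help it to pull aggregates apart. Hsph1 stood at 13.3 FPKM for DP, 5.49 FPKM for nasal neutrophils and 0.239 FPKM for blood neutrophils, with a log2 ratio of 1.14 for DP over nasal neutrophils and 3.53 for DP over blood neutrophils. Hspa4 stood at 14.7 FPKM for DP, 11.4 FPKM for nasal neutrophils and 4.91 FPKM for blood neutrophils, and Hspa4l at 9.38 FPKM for DP, 6.95 FPKM for nasal neutrophils and 1.51 FPKM for blood neutrophils. All 3 were ordered DP, nasal neutrophils, blood neutrophils, and Hsph1, whose promoter holds the longer element, did not share the nasal neutrophil peak of Hspa1a. Of 14 Hsp70 and Hsp110 genes, 12 passed the filter, with median log2 ratios of 0.29 for DP over nasal neutrophils, 1.67 for nasal over blood neutrophils and 1.79 for DP over blood neutrophils. The remaining Hspa12a and Hspa12b, atypical relatives, lay below 1 FPKM in each library. Summed over the class, Hspa1a, Hspa1b and Hspa1l made up 1.98% of the Hsp70 and Hsp110 level in the DP library, 19.5% in the nasal neutrophil library and 0.115% in the blood neutrophil library. Hspa8 made up 55.3% in the DP library, 43.3% in the nasal neutrophil library and 64.8% in the blood neutrophil library, and Hspa5 made up 33.8%, 32.8% and 29.1% in that order.

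**Figure D2:**
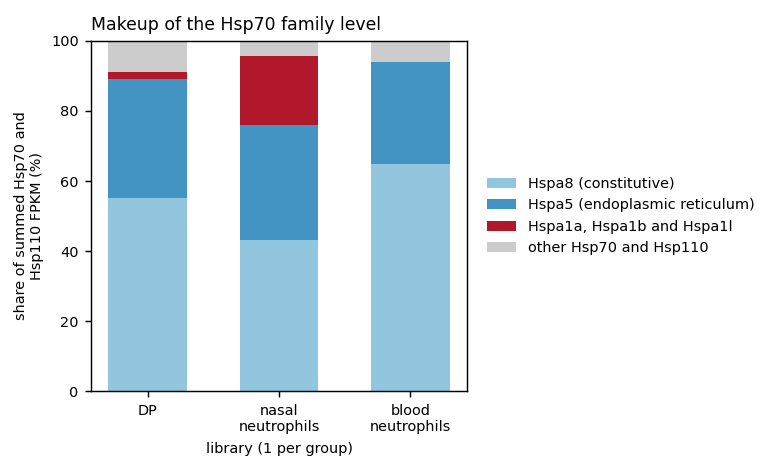
Share of the summed FPKM of the 14 Hsp70 and Hsp110 genes (percent, stacked bars) held by Hspa8, by Hspa5, by Hspa1a, Hspa1b and Hspa1l together, and by the other 9 genes, in each library. Hspa1a, Hspa1b and Hspa1l together take 1.98% of the DP bar, 19.5% of the nasal neutrophil bar and 0.115%, too thin to see, of the blood neutrophil bar.

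The Hsp90 genes were close to equal in DP and nasal neutrophils and lower in blood neutrophils. Hsp90ab1, the constitutive cytosolic form, stood at 155 FPKM for DP, 133 FPKM for nasal neutrophils and 26.4 FPKM for blood neutrophils. Hsp90aa1, the inducible cytosolic form, stood at 59.2 FPKM for DP, 51.5 FPKM for nasal neutrophils and 12.8 FPKM for blood neutrophils. Hsp90b1, or Grp94, the form of the endoplasmic reticulum, stood at 61.1 FPKM for DP, 41 FPKM for nasal neutrophils and 14.3 FPKM for blood neutrophils. The ratios of DP over nasal neutrophils were 0.22, 0.20 and 0.56 on the log2 scale, each below the median of all genes. Over blood neutrophils, DP gave 2.51, 2.12 and 2.02, all past 4-fold, by a margin that centring on the all-gene median removes. The level of Hsp90ab1 was 2.61 times that of Hsp90aa1 in the DP library, 2.59 times in the nasal neutrophil library and 2.05 times in the blood neutrophil library.

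Hspd1 and Hspe1 encode Hsp60 and Hsp10, the barrel and lid of the mitochondrial folding chamber, and are transcribed in opposite directions from the interval whose element is printed above. Hspd1 stood at 44.6 FPKM for DP, 15.2 FPKM for nasal neutrophils and 5.1 FPKM for blood neutrophils. Hspe1 stood at 35.9 FPKM for DP, 18.3 FPKM for nasal neutrophils and 3.38 FPKM for blood neutrophils. Both levels were highest in DP and lowest in blood neutrophils, with log2 ratios for DP over blood neutrophils of 2.90 and 3.08. The annotated exons of the pair overlap by up to 112 bases on opposite strands. RefSeq names 5 pseudogenes of Hspd1 and 6 of Hspe1, and the part of reads shared with them was not tested.

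Small heat shock proteins hold unfolding proteins without ATP. Hspb1, the mouse Hsp25, stood at 8.0 FPKM for DP and 20.8 FPKM for nasal neutrophils, with blood neutrophils listed at 0. It was lower in DP than in nasal neutrophils (log2 ratio -1.28), the 1 small heat shock gene past 2-fold in that direction, and its promoter holds both matches printed above. Hspb8, which acts with Bag3 in delivering damaged proteins to autophagy, stood at 4.26 FPKM for DP, 5.17 FPKM for nasal neutrophils and 0.0106 FPKM for blood neutrophils, the blood value resting on about 1 fragment. Hspb11, also called Ift25 and a part of the cilium transport machinery, stood at 22.4 FPKM for DP, 4.38 FPKM for nasal neutrophils and 4.08 FPKM for blood neutrophils. Hspb2, a muscle form, stood at 2.95 FPKM for DP and 0.20 FPKM for nasal neutrophils, with blood neutrophils listed at 0, the nasal neutrophil value resting on about 2 fragments. Exons of Hspb2 overlap those of Cryab, which stood at 31.9 FPKM for DP, 10.5 FPKM for nasal neutrophils and 0.0868 FPKM for blood neutrophils, so reads of the pair could be mixed. Hspb6, also known from muscle, stood at 1.86 FPKM for DP, 1.39 FPKM for nasal neutrophils and 1.2 FPKM for blood neutrophils. Hspb3, Hspb7 and Hspb9 did not reach the filter. Hspb1 and Hspb8 thus set both nasal libraries apart from blood, while Hspb11 set DP apart from both neutrophil libraries.

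Bag proteins differed in direction from one member to the next. Bag1, which ties Hsp70 to the proteasome and also binds Bcl2, stood at 161 FPKM for DP, 23.8 FPKM for nasal neutrophils and 2.62 FPKM for blood neutrophils. Its log2 ratio was 2.71 for DP over nasal neutrophils, 2.78 for nasal over blood neutrophils and 5.49 for DP over blood neutrophils, the last being the largest of any member in that comparison. Bag1 made up 81.7% of the summed Bag1 to Bag6 level in the DP library, 47% in the nasal neutrophil library and 36% in the blood neutrophil library. Bag5, an exchange factor of Hsp70, stood at 27.6 FPKM for DP, 3.87 FPKM for nasal neutrophils and 1.45 FPKM for blood neutrophils. Both genes were thus at least 4-fold higher in DP than in nasal neutrophils. Bag6, which guides membrane proteins to the endoplasmic reticulum and defective ones to destruction, stood at 3.12 FPKM for DP, 16.6 FPKM for nasal neutrophils and 2.66 FPKM for blood neutrophils. It was the fourth member at least 4-fold lower in DP than in nasal neutrophils (log2 ratio -2.09). Bag3, the stress-inducible form that feeds autophagy, stood at 0.563 FPKM for DP and 3.36 FPKM for nasal neutrophils, with blood neutrophils listed at 0. Its order, nasal neutrophils over DP over blood, was that of Hspa1a and Hspb1. Bag6, Hspa13, Hspb8, Dnajb9 and other members had this order too. Nasal neutrophils held the highest value in 16 members (23.5%, against 22.3% of all genes). Bag4, a brake on death receptor signalling, stood at 3.08 FPKM for DP, 1.35 FPKM for nasal neutrophils and 0.482 FPKM for blood neutrophils. Bag2, an inhibitor of the Hsp70-linked ubiquitin ligase, stood at 1.67 FPKM for DP, 1.63 FPKM for nasal neutrophils and 0.0528 FPKM for blood neutrophils. Hspbp1, an exchange factor of Hsp70, stood at 12 FPKM for DP, 6.25 FPKM for nasal neutrophils and 0.504 FPKM for blood neutrophils, while Hspbap1, named for binding Hspb1, stood at 2.66 FPKM for DP, 4.41 FPKM for nasal neutrophils and 6.09 FPKM for blood neutrophils. Hspbap1 was lowest in DP and highest in blood neutrophils.

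Hsf1, the factor that switches on inducible chaperone genes, stood at 15 FPKM for DP, 5.76 FPKM for nasal neutrophils and 2.44 FPKM for blood neutrophils, with log2 ratios of 1.24 for DP over nasal neutrophils and 2.22 for DP over blood neutrophils. Its transcript was thus highest in DP, while the Hspa1a level was 9.67 times lower there than in nasal neutrophils. Hsf2, Hsf3, Hsf5 and Hsf2bp lay below 1 FPKM in each library, and Hsf4 was listed at 0 in all 3.

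Of the 45 J-domain genes, 37 passed the filter. The Dnaja genes encode the classical co-chaperones. Dnaja1 stood at 29.8 FPKM for DP, 40.7 FPKM for nasal neutrophils and 29.6 FPKM for blood neutrophils, and Dnaja2 at 18.3 FPKM for DP, 22.5 FPKM for nasal neutrophils and 23.6 FPKM for blood neutrophils. Both cytosolic forms differed by less than 2-fold between any pair of libraries. Dnaja3, the mitochondrial form also called Tid1, stood at 20.8 FPKM for DP, 5.96 FPKM for nasal neutrophils and 0.419 FPKM for blood neutrophils. Dnaja4 stood at 3.19 FPKM for DP, 0.431 FPKM for nasal neutrophils and 0.00608 FPKM for blood neutrophils, the blood value resting on under 1 fragment, and its exons overlap over up to 1581 bases with Wdr61, which stood at 68.9 FPKM for DP, 18.1 FPKM for nasal neutrophils and 12 FPKM for blood neutrophils. Dnaja3 and Dnaja4 were at least 4-fold higher in DP than in blood neutrophils (log2 ratios 3.94 and 2.06).

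Dnajb genes went both ways between DP and nasal neutrophils. Of the 10 that passed the filter, 5 were higher and 5 lower in DP, with a median log2 ratio of 0.01 and a range from -1.07 to 1.44. In nasal over blood neutrophils 10 of 10 were above 0 (median 1.5), against 62.1% of all genes. Dnajb1, the main stress-inducible J-domain protein, stood at 101 FPKM for DP, 77.7 FPKM for nasal neutrophils and 28.5 FPKM for blood neutrophils. Its log2 ratio of 0.37 for DP over nasal neutrophils did not follow that of Hspa1a. Dnajb6, which prevents the clumping of polyglutamine proteins and whose promoter holds the longer element, stood at 193 FPKM for DP, 70.6 FPKM for nasal neutrophils and 63.4 FPKM for blood neutrophils. Of the forms of the endoplasmic reticulum, Dnajb11, a partner of BiP, stood at 109.9 FPKM for DP, 43.7 FPKM for nasal neutrophils and 17.6 FPKM for blood neutrophils, and Dnajb9, at 66.2 FPKM for DP, 73.1 FPKM for nasal neutrophils and 15.6 FPKM for blood neutrophils. Dnajb9 was nearly equal in both nasal libraries, and Dnajb11 was higher in DP. Dnajb13, known from the radial spokes of cilia and sperm tails, stood at 21.1 FPKM for DP, 9.3 FPKM for nasal neutrophils and 0.127 FPKM for blood neutrophils. Its exons overlap with Ucp2, which stood at 18.6 FPKM for DP, 87.6 FPKM for nasal neutrophils and 192 FPKM for blood neutrophils, an opposite order. Tekt1 and Foxj1, markers of ciliated cells, stood at 9.8 and 0.361 FPKM in DP, at 3.72 and 6.04 FPKM in nasal neutrophils, and were listed at 0 in blood neutrophils. Rsph1, a radial spoke gene of the same list, stood at 20.6 FPKM for DP, 7.47 FPKM for nasal neutrophils and 4.12 FPKM for blood neutrophils. The 11 markers of ciliated and other epithelium with a row summed to 2464 FPKM for DP, 1843 FPKM for nasal neutrophils and 5.71 FPKM for blood neutrophils, where 5 were listed at 0. The part of ciliated cells in the Dnajb13 and Hspb11 values was not tested. The other Dnajb genes past the filter, Dnajb2, Dnajb4, Dnajb5, Dnajb12 and Dnajb14, ranged from 0.575 to 5.83 FPKM in DP, from 2.29 to 6.97 in nasal neutrophils and from 0.194 to 2.52 in blood neutrophils, and all 5 were lowest in blood neutrophils.

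Dnajc genes, a mixed family that shares little beyond the J domain, showed another pattern. Of the 23 that passed the filter, 21 had a higher level in DP than in nasal neutrophils, with a median log2 ratio of 1.34, where 69.3% of all genes were above 0, whereas 11 were higher and 12 lower in nasal than in blood neutrophils (median -0.03). Dnajc8, a nuclear protein linked to splicing, stood at 225 FPKM for DP, 60.8 FPKM for nasal neutrophils and 164 FPKM for blood neutrophils. Dnajc19, part of the motor that draws proteins into mitochondria, stood at 111 FPKM for DP, 10.7 FPKM for nasal neutrophils and 8.88 FPKM for blood neutrophils. Dnajc15, a mitochondrial membrane protein that restrains respiratory complex I, stood at 91.8 FPKM for DP, 15.8 FPKM for nasal neutrophils and 22 FPKM for blood neutrophils. Dnajc19 and Dnajc15, together with Dnajc2, were the J-domain genes at least 4-fold higher in DP than in nasal neutrophils, with log2 ratios of 3.26, 2.47 and 2.32. Dnajc7, which hands clients between Hsp70 and Hsp90, stood at 52.1 FPKM for DP, 20.6 FPKM for nasal neutrophils and 29.5 FPKM for blood neutrophils, and Dnajc14, a protein of the endoplasmic reticulum, at 35.8 FPKM for DP, 20.9 FPKM for nasal neutrophils and 32.6 FPKM for blood neutrophils. The level of Dnajc8 was lowest in nasal neutrophils, as it was for Dnajc15, Dnajc7 and Dnajc14.

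A further 5 Dnajc genes reached 4-fold between DP and blood neutrophils alone. Dnajc9, a histone chaperone, stood at 29 FPKM for DP, 9.8 FPKM for nasal neutrophils and 6.2 FPKM for blood neutrophils. Dnajc11, of the mitochondrial outer membrane, stood at 12.6 FPKM for DP, 3.81 FPKM for nasal neutrophils and 1.6 FPKM for blood neutrophils. Dnajc12, needed by the aromatic amino acid hydroxylases, stood at 7.08 FPKM for DP, 4.12 FPKM for nasal neutrophils and 0.857 FPKM for blood neutrophils. All 3 were ordered DP, nasal neutrophils, blood neutrophils. Dnajc18 stood at 4.65 FPKM for DP, 1.43 FPKM for nasal neutrophils and 0.213 FPKM for blood neutrophils, and Dnajc25 at 3.92 FPKM for DP, 1.31 FPKM for nasal neutrophils and 0.136 FPKM for blood neutrophils, in that same order. The other 12 Dnajc genes past the filter ranged from 1.24 to 40.2 FPKM in DP, from 0.299 to 29.9 in nasal neutrophils and from 0.248 to 22.5 in blood neutrophils. Among these, Dnajc5, the cysteine string protein of secretory vesicles, and Dnajc16 were the 2 Dnajc genes lower in DP than in nasal neutrophils, at 15.2 against 29.9 FPKM and 1.24 against 2.7 FPKM. Of the 8 J-domain genes under the filter, Dnajb8, Dnajc22 and Dnajc5g were listed at 0 in all 3 libraries, and Dnajb3, Dnajb7, Dnajc5b, Dnajc6 and Dnajc27 were not.

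**Figure D3:**
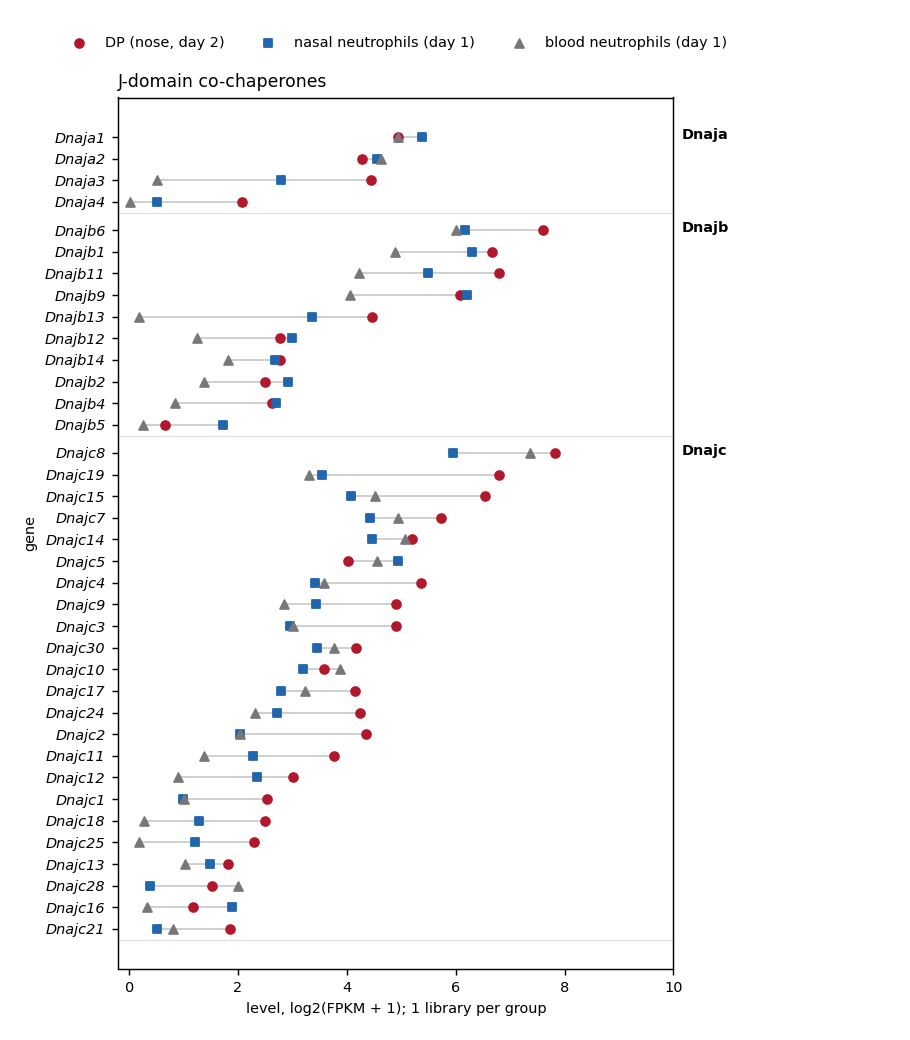
Levels as log2(FPKM + 1) of the 37 J-domain genes past the filter, by family and falling mean level, in DP (red circles), nasal neutrophils (blue squares) and blood neutrophils (grey triangles), 1 library each. Most Dnajc points of DP lie to the right of both neutrophil libraries, while the Dnajb points of DP and nasal neutrophils lie within 2-fold in 6 of 10 genes.

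The comparison of DP with nasal neutrophils sets cells with SiglecF against cells without it, both from the nose and both bearing Ly6G, 1 day apart. Of the 68 members past the filter, 7 were at least 4-fold higher in DP (Bag1, Bag5, Hspa14, Hspb11, Dnajc2, Dnajc15 and Dnajc19), or 10.3%, against 8.42% of all 10719 genes. A further 4 were at least 4-fold lower (Hspa1a, Hspa1b, Hspa1l and Bag6), or 5.88%, against 3.62%. Both shares lay near the background. The member median was 0.70, against 0.57 for all genes, and 35 of 68 members lay above the all-gene median. At 2-fold, 29 members were higher (42.6%, against 33.6%) and 7 lower (10.3%, against 11.3%). Relative to the all-gene median the 4-fold split turned to 2 higher (Bag1 and Dnajc19) and 5 lower (Bag3 added), so which direction holds more members depends on the scaling. Of the 4 members lower in DP, Bag6 alone stood at 1 FPKM or more in blood neutrophils.

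Nasal and blood neutrophils, alike in gate and day, differ in the tissue they came from. Here 16 members were at least 4-fold higher in nasal neutrophils, or 23.5%, against 13.1% of all genes, and 0 were at least 4-fold lower, against 3.23%. The 16 were Hspa1a, Hspa1b, Hspa1l, Hspa9, Hsph1, Hsp90ab1, Hspe1, Hspb1, Hspb8, Bag1, Bag3, Bag6, Hspbp1, Dnaja3, Dnajb9 and Dnajb13. The member median was 1.00, against 0.41 for all genes. At 2-fold, 34 members were higher (50%, against 33.5%) and 2 lower, Dnajc8 and Dnajc28 (2.94%, against 12.8%). Centred on that median, 8 were higher and 1 (Dnajc28) was lower. Of the 16, Hspb1 and Bag3 were listed at 0 in blood neutrophils, where an exact 0 can be a failed estimate, and 6 stood at 1 FPKM or more there.

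For DP against blood neutrophils, where tissue, day and gate all differ, 30 members were at least 4-fold higher in DP, or 44.1%, against 24% of all genes, and 0 were at least 4-fold lower, against 3.57%. The member median was 1.80, against 0.95 for all genes, and 63 of 68 were above 0 (92.7%, against 74.4% of all genes). At 2-fold, 48 members were higher (70.6%, against 48.6%) and 0 lower (against 9.49%). The 3 comparisons share libraries, so they are not independent of one another. Centred on the all-gene median, 12 members remained past 4-fold higher, led by Bag1, Dnajb13 and Hspa1a.

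**Figure D4:**
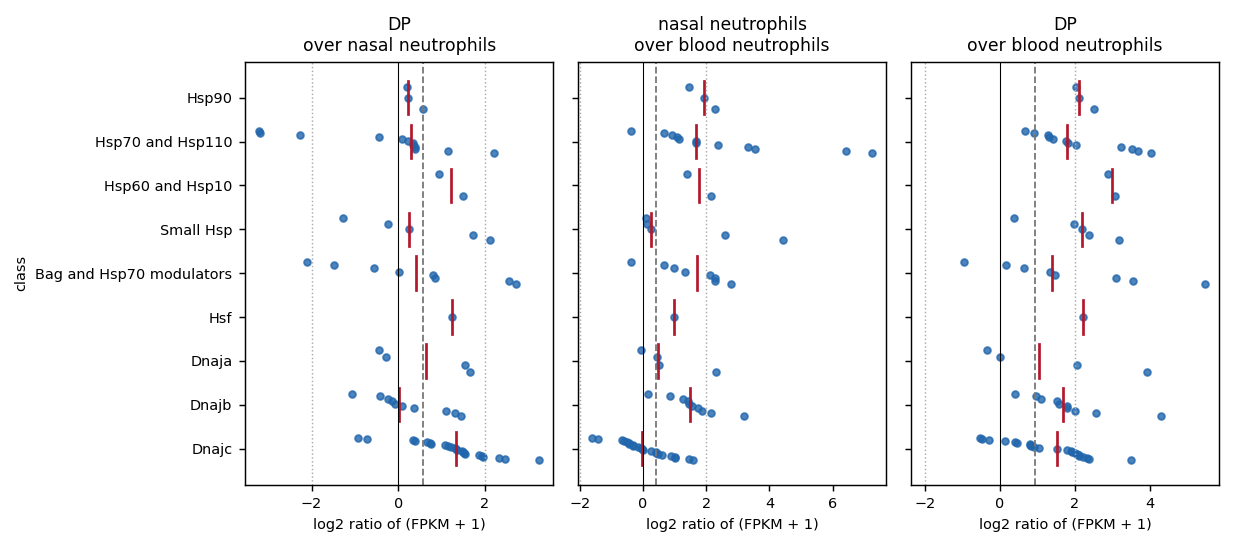
Log2 ratios of (FPKM + 1) for the 68 members past the filter in the 3 comparisons, by class. Each blue point is a gene, red bars are class medians, the dashed line is the median of all 10719 genes (0.57, 0.41 and 0.95), and dotted lines mark 4-fold. In DP over nasal neutrophils the Dnajc median (1.34) lies right of the dashed line and those of Dnajb (0.01) and Hsp90 (0.22) lie left of it, while in nasal over blood neutrophils the Dnajc median (-0.03) lies left of it.

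The members were also grouped by the compartment in which the chaperone works, assigned after the values were seen and from textbook knowledge. The 8 members assigned to mitochondria were Hspa9, Hspd1, Hspe1, Dnaja3, Dnajc11, Dnajc15, Dnajc19 and Dnajc30. All 8 had a higher level in DP than in nasal neutrophils, against 69.3% of all genes. Their median log2 ratio was 1.5, with a range from 0.34 to 3.26. Relative to the all-gene median 7 of the 8 were higher, Hspa9 being the exception. Over blood neutrophils DP was at least 4-fold higher in 7 of these 8, Dnajc30 being the exception, against 24% of all genes. Dnajc4 and Dnajc28 were not assigned to mitochondria, and these counts depend on such choices. Their log2 ratios were 1.95 and 1.14 for DP over nasal neutrophils, and 1.79 and -0.48 for DP over blood neutrophils. Exons of 5 of the 8 overlap another protein-coding gene: Hspd1, Hspe1, Dnaja3, Dnajc19 and Dnajc30. RefSeq also names 1 pseudogene of Hspa9 and 1 of Dnajc19. The part of shared reads in these values was not tested. The 10 members assigned to the endoplasmic reticulum (Hspa5, Hsp90b1, Hspa13, Dnajb9, Dnajb11, Dnajb12, Dnajb14, Dnajc1, Dnajc3 and Dnajc10) had a median of 0.25 for DP over nasal neutrophils. Their range from -0.45 to 1.96 overlaps that of the mitochondrial members. Of the 10, 3 were at least 2-fold higher in DP, near the 33.6% of all genes. The median of the 10 was 1.20 for nasal over blood neutrophils. Dnajc14, with ratios of 0.75 and -0.62 in these comparisons, was not assigned to the endoplasmic reticulum. Transcript length went with the ratio across all genes. The 13 members under 1500 nt had a median ratio of 1.52 over nasal neutrophils, against 1.00 for 2832 genes of that length, and the 55 longer members one of 0.39, against 0.44 for 7762 genes. The part of transcript length in the Dnajc and mitochondrial values was not tested. With ratios corrected for length in 20 bins, the counts at 4-fold for DP over nasal neutrophils were 7 higher and 3 lower. Corrected log2 ratios were 2.93 for Dnajc19, 2.86 for Dnajc15 and 2.25 for Dnajc2. Hspb11 (1.38) and Bag6 (-1.92) no longer reached 4-fold there. The 7 higher are thus not the same 7 members as without the correction.

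Chaperone genes outside the symbol rule were read from lists, whose counts at 4-fold stand against the shares of all genes given above. For DP over nasal neutrophils that background was 8.42% on the higher side and 3.62% on the lower side. It was 13.1% and 3.23% for nasal over blood neutrophils, and 24% and 3.57% for DP over blood neutrophils. Of 20 co-chaperones of Hsp90 and Hsp70, 1 was at least 4-fold higher in DP than in nasal neutrophils and 0 lower. In nasal over blood neutrophils 3 were higher and 0 lower, and in DP over blood neutrophils 7 and 0. The list medians were 0.98, 0.48 and 1.26 for these comparisons. Among its genes were Ppid (DP 39.9 FPKM, nasal 7.85 and blood 6.42), a cyclophilin partner of Hsp90, Ptges3 (DP 245 FPKM, nasal 72.5 and blood 28), the p23 co-chaperone, and Fkbp4 (DP 35.3 FPKM, nasal 22.1 and blood 1.91), a partner of steroid receptors. Also named were Ppp5c (DP 12.9 FPKM, nasal 7.31 and blood 0.639) and Nudc (DP 77.1 FPKM, nasal 32.9 and blood 3.2). All 5 were highest in DP and lowest in blood neutrophils.

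The TRiC chaperonin and prefoldin, which fold actin and tubulin, had 17 of 18 listed genes with a row, all past the filter. Of these, 3 were at least 4-fold higher in DP than in nasal neutrophils and 0 lower, 1 was higher and 1 lower in nasal than in blood neutrophils, and 7 were higher and 0 lower in DP than in blood neutrophils. The medians were 1.15, 0.25 and 1.61 in the same order. They included the prefoldin genes Pfdn1 (DP 51.1 FPKM, nasal 8.86 and blood 3.94), Pfdn4 (DP 48.8 FPKM, nasal 7.26 and blood 4.73) and Pfdn5 (DP 414 FPKM, nasal 116 and blood 472), with Pdrg1 (DP 81.2 FPKM, nasal 16.6 and blood 3.87) and the chaperonin subunit Cct3 (DP 26.1 FPKM, nasal 17 and blood 2.61). Pfdn5 was the gene lower in nasal than in blood neutrophils.

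Of 15 mitochondrial chaperones and proteases, 0 were at least 4-fold higher or lower in DP than in nasal neutrophils, 2 were higher and 0 lower in nasal than in blood neutrophils, and 9 were higher and 0 lower in DP than in blood neutrophils. Examples were Trap1 (DP 16.3 FPKM, nasal 6.55 and blood 0.74), the mitochondrial Hsp90, Clpp (DP 31.8 FPKM, nasal 8.0 and blood 2.97) and Pam16 (DP 43.1 FPKM, nasal 10.4 and blood 5.28), a partner of Dnajc19. The list also named Hscb (DP 19.7 FPKM, nasal 4.61 and blood 4.03), itself a J-domain protein, Afg3l2 (DP 13.9 FPKM, nasal 6.85 and blood 0.829) and Yme1l1 (DP 39.2 FPKM, nasal 9.62 and blood 29.2). The medians were 1.40, 0.86 and 2.1.

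Of 21 folding factors of the endoplasmic reticulum, 1 was at least 4-fold higher and 0 lower in DP than in nasal neutrophils, 10 were higher and 0 lower in nasal than in blood neutrophils, and 12 were higher and 0 lower in DP than in blood neutrophils. The medians were 0.53, 1.93 and 2.26. They included Sdf2l1 (DP 32.7 FPKM, nasal 19.3 and blood 0.207), Manf (DP 27.8 FPKM, nasal 18.9 and blood 1.71), Creld2 (DP 55.1 FPKM, nasal 14.5 and blood 12.3), Ero1l (DP 43.6 FPKM, nasal 111 and blood 8.31), Fkbp2 (DP 90 FPKM, nasal 28.5 and blood 6.19) and Tor1a (DP 80.3 FPKM, nasal 29 and blood 44.1). Ero1l, an oxidase that forms disulphide bonds, was the highest in nasal neutrophils of these 6. Of the other J-domain proteins, 3 of 4 passed the filter, among them Gak (DP 10.1 FPKM, nasal 10.6 and blood 14), with medians of 0.71, 0.03 and 0.75. Hscb and Sec63, the others past the filter, were also counted in lists above.

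A list of 20 Hsf1 targets and stress proteins had 19 genes past the filter. Chordc1, Ahsa1, Stip1, Fkbp4, Tcp1 and Serpinh1 in it also stand in lists above, so the list counts and medians are not independent. In DP over nasal neutrophils 1 was at least 4-fold higher and 4 lower, in nasal over blood neutrophils 12 were higher and 1 lower, and in DP over blood neutrophils 8 were higher and 1 lower. The medians were 0.65, 2.99 and 1.91. The autophagy receptor Sqstm1 (DP 93.8 FPKM, nasal 1066 and blood 78.1), the haem oxygenase Hmox1 (DP 12.7 FPKM, nasal 447 and blood 40.8) and Gadd45b (DP 309.7 FPKM, nasal 1085 and blood 31.7) shared with Hspa1a the highest value in nasal neutrophils. The metallothioneins Mt1 (DP 223 FPKM, nasal 46.7 and blood 0.101) and Mt2 (DP 31.8 FPKM, nasal 10.7 and blood 0.0484) and the small heat shock protein Cryab were highest in DP. Ubb, a ubiquitin gene, was listed at 0 in DP and blood neutrophils and at 2684 FPKM in nasal neutrophils, so that no ratio is given for it, though it counts among the 4 lower and the 12 higher.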

How the data were processed

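RNA was measured in 3 libraries, 1 per group, grouped by the gate, tissue and day in the labels. The deposited values are FPKM, named so from the values and the tool list because the header gives no unit. Per the submitters' processing notes, the mm9 genome was used, with Cufflinks 2.1.1, TopHat2 2.0.8 and Bowtie2 2.1.0 among the tools. Per the labels' protocols, libraries came from a low-input RNA kit. Whether strand was used in estimating FPKM is not given in the sources used here.

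From these values, those under 1e-06 FPKM were set to 0, ratios were log2((FPKM + 1)/(FPKM + 1)), and genes at a mean of 1 FPKM or more were kept, with 4-fold as the threshold. That scale understates the ratio of low genes. No count model was fitted, since FPKM are estimates, and with 1 library per group there is no test or error. Transcript lengths, exon overlaps and coding sequences (the longest open reading frame) came from the GENCODE annotation of GRCm38, by symbol and with no coordinates carried over, and promoters from RefSeq GRCm38.p6. Fragments behind a value were approximated from the FPKM step of 1 fragment per kb. The ratio and count code was tested on simulated data.

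All Hsp, Bag and Hsf members past the filter were named, with the J-domain members past 4-fold in any comparison or among the 5 highest in their family, and, of each list, the 3 genes with the largest ratio in each comparison at a mean of 5 FPKM or more. Of the co-chaperone list, 1 gene that this rule names is not reported here. Other members named were chosen after their values were seen. The members and lists were chosen with earlier results of these data known, and the compartments after the values were seen. Alternatives changed the pseudocount, filter, scaling, length correction, handling of 0 and threshold. Protein features were not analysed here. Python 3.11.15, numpy 2.4.6, pandas 2.3.3, edlib 1.3.9.post1 and matplotlib 3.10.9 were used.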

Additional observations from a re-analysis of the deposited data

How the results depend on the processing

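Counts of members at 4-fold depended on the scale and the scaling, and for DP over nasal neutrophils the scaling decided whether more members were higher or lower. For DP over nasal neutrophils, 7 members were higher and 4 lower. A pseudocount of 0.1 gave 14 higher, a pseudocount of 5 gave 3 higher and 2 lower, centring on the all-gene median gave 2 higher and 5 lower, upper-quartile scaling gave 3 higher and 4 lower, and a 2-fold threshold gave 29 higher and 7 lower. For nasal over blood neutrophils, 16 were higher and 0 lower. A pseudocount of 0.1 gave 26 higher and 1 lower, a pseudocount of 5 gave 5 higher, centring gave 8 higher and 1 lower, and a 2-fold threshold gave 34 higher and 2 lower. For DP over blood neutrophils, 30 were higher and 0 lower, with a median of 1.80. A pseudocount of 5 gave 11 higher and a median of 1.02, centring 12 higher and a median of 0.85, upper-quartile scaling 17 higher, and a 2-fold threshold 48 higher. A pseudocount acts on low values and centring removes the shift of all genes by construction, and the cause was not tested otherwise.

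Both other alternatives were chosen after seeing the data. Keeping only genes at 1 FPKM or more in blood neutrophils left 47 members and gave 1 lower in DP than in nasal neutrophils, 6 higher in nasal than in blood neutrophils and 18 higher in DP than in blood neutrophils. Leaving out the 20 members whose exons overlap another gene gave 5 higher and 2 lower in DP than in nasal neutrophils. It also gave a member median of 0.38, where all 68 members gave 0.70. The median of all genes was 0.57. Only members were left out, so other genes with overlapping exons remain in that value and it is not a like comparison. With no filter, a filter at 5 FPKM, values rescaled to 1000000 per library, length correction, or genes at 0 left out, each count stayed within 1.5 times its value. No paired analysis was possible because each group had 1 library, and for the same reason no library could be left out. Values near 1 FPKM rest on the fewest fragments in nasal neutrophils, where 1 fragment per kb is 0.0781 FPKM, against 0.0184 FPKM in blood neutrophils.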
